A study of Mus musculus with 6 samples.

Results

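Voltage-gated sodium and calcium channels open when a neuron depolarises, and the genes of their subunits were followed here in sorted cells of the mouse cortex after a stroke. The members were all row names of the deposited table that start with Scn, a number and a final a or b, or with Cacna, Cacnb or Cacng and a number, which gave 39 of the 24419 genes, 13 of sodium and 26 of calcium channels. The sodium channel gene known as Scn2a is listed under its older symbol Scn2a1, which the rule does not take. Its values are given beside its relatives and are not counted among the 39.

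The tested group was given 15-HETrE, a hydroxylated fatty acid, and its control was given vehicle; each group had 3 RNA-seq libraries. All animals were male wild-type C57BL/6N mice with 60 min of middle cerebral artery occlusion. Intravenous injections in 150 µL of PBS followed 24, 48 and 72 h after the onset of ischemia, and the labels give 600 ng of 15-HETrE for the treated animals. On day 4 the peri-infarct cortex was taken, dissociated with pronase for 75 min and sorted for cells with Thy1 and without ACSA2, CD31, CD45 and O4. Nothing in the labels says that the libraries came from separate animals, so the p-values cover variation from library to library, which can be technical. Ages of the animals were not stated.

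Sodium channels are built from a large pore-forming alpha subunit and small beta subunits that modify gating and bind neighbouring proteins. They carry the upstroke of the action potential and are concentrated at the axon initial segment and the nodes of Ranvier. Calcium channels have a pore-forming alpha1 subunit, an intracellular beta subunit and an alpha2delta subunit, and they couple depolarisation to transmitter release and to signalling inside the cell. Most genes named Cacng encode TARPs, which are auxiliary subunits of AMPA-type glutamate receptors rather than of calcium channels.

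The libraries held 5405245 to 22558400 reads assigned to genes, so 1 read was worth 0.0450 to 0.180 CPM, the read count relative to the library's total as scaled by the authors. The smallest were vehicle combined and 15-HETrE combined, named after their columns; the sources used here do not say what was combined. Values are listed below for 15-HETrE 1, unnumbered and combined, and then for vehicle 1, 2 and combined. Column names also carry a prefix, shared by 15-HETrE 1, vehicle 1 and vehicle 2, and the difference is also given for that prefix alone and for the combined pair alone. 15-HETrE unnumbered is alone under its prefix and enters neither. The neuronal markers Snap25 and Rbfox3 were present in every library, Snap25 at 749 to 2818 CPM. Markers of oligodendrocytes were also present, and 8 of them summed to 15822 to 30893 CPM in 15-HETrE and to 14741 to 22226 CPM in vehicle libraries. The libraries were thus not free of transcripts of other cell types.

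Of the 39 members, 33 passed the filter of a mean of at least 1 CPM and were tested, and 9 of these averaged above 100 CPM. No member passed limma's test over all 14523 genes kept, at an adjusted p of 0.05, where 0% of all genes passed in either direction. The smallest adjusted p of a member was 0.334 (limma), and edgeR's quasi-likelihood test also called 0 members. At an unadjusted p under 0.05, 11 of the 33 were higher in 15-HETrE and 0 were lower, against 4.27% of all genes higher and 5.23% lower (limma). With edgeR 9 members stood higher at that threshold, against 3.64% of all genes. This count depended on single libraries: it was 3 without 15-HETrE 1, against 2.64% of all genes, and 3 without vehicle 2, against 2.35% (limma). It was 8 without vehicle combined, against 5.43%, 13 without both combined libraries, against 5.27%, and 12 with the prefix as a batch term, against 8.59%. The 3 libraries of 15-HETrE lay wholly above the 3 of vehicle for 9 members and wholly below for none, against 6.84% of all genes above. Among the 9 is Cacna1s, which averaged 3.56 CPM in 15-HETrE and 0.508 CPM in vehicle libraries. It passed the filter of 1 CPM only through the 15-HETrE libraries, so its place in that count carries little weight. The median log2 fold change of the tested members was 0.63, beside 0.016 for all genes tested.

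Under other settings the calls at an adjusted p of 0.05 were as follows. With weights for each library limma called 12 members, where 16.7% of all genes passed, and DESeq2 called 2, where 1.14% passed. Limma called 0 members after centring on pan-neuronal markers, where 3.82% of all genes passed. It also called 0 without vehicle combined, where 0.31% passed, without both combined libraries, where 0.516% passed, and with the prefix as a batch term, where 0.0551% passed.

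Neuronal markers stood in the same direction as the channel genes, and so did astrocyte markers. Of 8 astrocyte markers, 7 had a log2 fold change above 0, against 51% of all genes, with a median of 1.01. The log2 fold change was above 0 for 31 of the 33 members, against 51% of all genes, but for 15 of 33 once each library was centred on the mean of 12 pan-neuronal markers, against 12.3% of all genes. That centring moved the median of all genes to -0.73, and the median of the members to -0.12. The 12 pan-neuronal markers themselves had a median log2 fold change of 0.77, with 11 of 12 above 0. Their summed level ranged from 3586 to 6634 CPM in 15-HETrE and from 2300 to 3746 CPM in vehicle libraries, and none was at 0 in all libraries. In bulk samples, fewer cells of a type and less RNA per cell cannot be told apart.

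**Figure D1:**
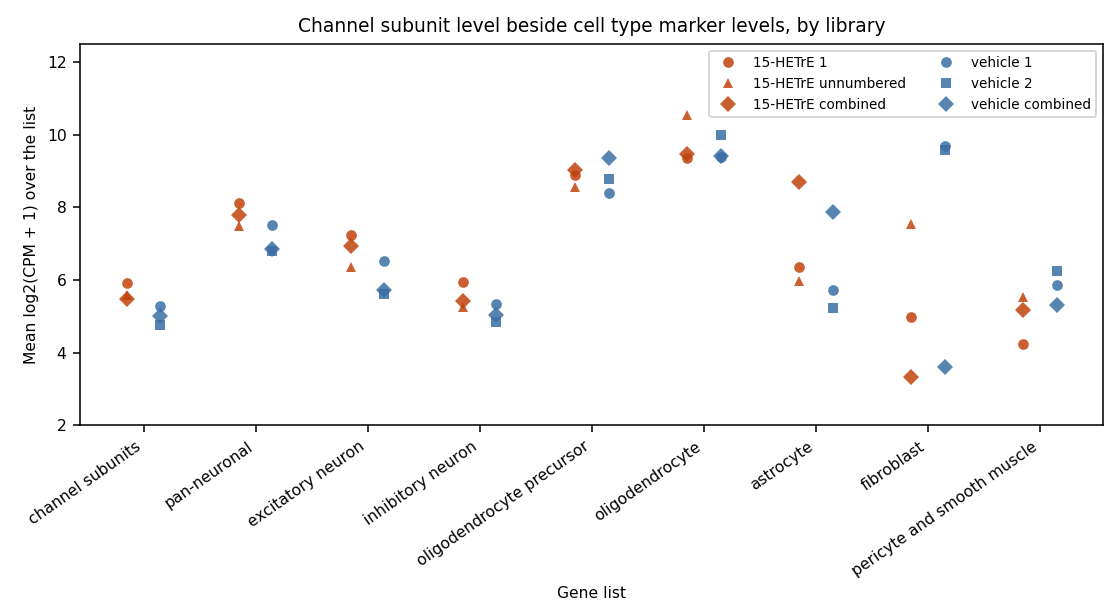
Mean log2(CPM + 1) over each gene list (vertical axis) for the 33 tested channel subunits and 8 lists of cell type markers (horizontal axis), with 1 point per library, 15-HETrE to the left of vehicle in each pair. Channel subunits lay between 5.49 and 5.93 in 15-HETrE and between 4.75 and 5.28 in vehicle libraries, and the fibroblast and astrocyte lists set the combined libraries apart.

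The plot of channel levels beside marker levels shows both patterns. The mean level of the 33 members was 5.93, 5.59 and 5.49 in the 15-HETrE libraries, against 5.28, 4.75 and 5.02 in the vehicle libraries (log2 scale), with no overlap. The first prefix alone gave a difference of 0.91 and the combined pair 0.47, and the pan-neuronal list gave 0.96 and 0.93. Astrocyte markers lay 2.47 higher in the combined libraries than in the others, and fibroblast markers differed by -4.48 between the combined and the other libraries. The fibroblast list also differed between groups, by -2.35 over all libraries, by -4.65 in the first prefix and by -0.29 in the combined pair. For the astrocyte list these differences were 0.74, 0.89 and 0.83, close to those of the pan-neuronal list.

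Of the 7 fibroblast markers none was at 0 in all libraries, and Pdgfra is also a marker of oligodendrocyte precursors. The other 6 summed to 126, 1335 and 23.8 CPM in 15-HETrE and to 8271, 6228 and 63.3 CPM in vehicle libraries, so vehicle 1 and 2 stood far above the rest. Pdgfra alone had 428 to 1228 CPM in 15-HETrE and 879 to 1382 CPM in vehicle libraries. Pericyte and smooth muscle markers, 8 genes with none at 0 in all libraries, summed to 228 to 669 CPM in 15-HETrE and to 639 to 1090 CPM in vehicle libraries. Of these 8, 4 were lower in 15-HETrE with no overlap, against 8.32% of all genes. The list differed by -0.82 over all libraries, by -1.82 in the first prefix and by -0.13 in the combined pair. Endothelial markers were 7 genes with none at 0 in all libraries. Their sums were 44.9 to 97.6 CPM in 15-HETrE and 112 to 210 CPM in vehicle libraries. The sums did not overlap between groups, but each of the 7 genes did. Of the 7, 2 had a log2 fold change above 0, against 51% of all genes. Cdh5 alone had 4.19, 37.6 and 3.11 CPM in 15-HETrE and 116, 161 and 5.40 CPM in vehicle libraries. It thus made up most of the endothelial sums of vehicle 1 and vehicle 2, which were 164 and 210 CPM. Astrocyte markers, 8 genes with none at 0 in all libraries, summed to 1370 to 19942 CPM in 15-HETrE and to 649 to 7399 CPM in vehicle libraries. The part of these cells in the channel differences was not tested.

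Among the sodium channel alpha subunits of central neurons, Scn8a and Scn1a averaged higher in 15-HETrE, while Scn3a did not. Scn8a encodes Nav1.6, the main sodium channel of mature axon initial segments and nodes (chromosome 15, 100869858 to 101045938, GRCm38). It stood at 455, 379 and 280 CPM in the 15-HETrE libraries, against 285, 168 and 177 CPM in the vehicle libraries. Vehicle 1 lay just above 15-HETrE combined, so the groups overlapped. Its log2 fold change was 0.84 (SE 0.29, adjusted p 0.460, limma), and it was 0.090 relative to the pan-neuronal markers.

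Scn1a encodes Nav1.1, a channel prominent in fast-spiking inhibitory neurons (chromosome 2, 66270778 to 66440840). It had 251, 154 and 111 CPM in the 15-HETrE libraries and 142, 74.8 and 74.1 CPM in the vehicle libraries. Here too 15-HETrE combined lay under vehicle 1. On the log2 scale the difference was 0.81 (SE 0.36, adjusted p 0.526, limma). Scn2a1, the gene of Nav1.2, a channel of excitatory neurons and their axons, had 515, 275 and 258 CPM in 15-HETrE and 416, 179 and 137 CPM in vehicle libraries. Vehicle 1 was above 2 of the 15-HETrE libraries, and the log2 fold change was 0.61 (SE 0.42, adjusted p 0.669, limma).

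Scn3a encodes Nav1.3, the channel most used before birth (chromosome 2, 65457118 to 65567627). It had 93.5, 48.9 and 42.8 CPM in 15-HETrE and 63.2, 45.7 and 106 CPM in vehicle libraries. Vehicle combined was the highest of all 6 libraries and 15-HETrE combined the lowest. The difference was 0.79 within the first prefix and -1.28 in the combined pair, or -0.21 over all libraries (SE 0.39, adjusted p 0.884, limma), which was 0.11 without vehicle combined and 0.0052 without 15-HETrE combined.

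Scaled by exon length, the make-up of this family was alike in most libraries. Of the summed CPM per kb of the 4 genes, Scn2a1 took 38.1% ± 3.5 in 15-HETrE and 38.9% ± 9.4 in vehicle libraries, and Scn8a took 33.9% ± 4.5 and 29.0% ± 2.3 (SD, n = 3 each). Scn1a took 21.3% ± 1.7 of the summed level in 15-HETrE and 18.5% ± 0.6 in vehicle libraries, with no overlap, since its lowest share in 15-HETrE was 19.3% and its highest in vehicle 19.1%. Scn3a took 6.2% to 7.6% in 15-HETrE and 7.4%, 10.4% and 22.9% in vehicle 1, vehicle 2 and vehicle combined.

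The other alpha subunit genes were low, and Scn9a and Scn7a averaged 3.67 and 4.27 CPM over all libraries. Scn9a, a channel of sensory and sympathetic neurons, had 139, 142 and 18 reads in the 15-HETrE libraries and 25, 72 and 2 reads in the vehicle libraries. Scn7a, whose product senses sodium rather than voltage, had 211, 54 and 43 reads in 15-HETrE and 125, 25 and 0 reads in vehicle libraries. Both overlapped between groups. The log2 fold change was 1.42 for Scn9a (SE 0.73, adjusted p 0.581, limma). For Scn7a it was 1.46 (SE 0.82, adjusted p 0.611, limma). Scn4a, of skeletal muscle, and Scn10a and Scn11a, of pain-sensing neurons, averaged under 1 CPM and were not tested. Scn11a had 41 reads, all in 15-HETrE combined, and Scn10a had 36 reads, 10 in vehicle 1 and 26 in vehicle 2. A library with 0 reads allows up to 0.135 to 0.540 CPM, which covers counting error only.

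Of the beta subunit genes, Scn2b averaged higher in 15-HETrE, with a wide spread. Scn2b, whose product is linked to the alpha subunit by a disulphide bond (chromosome 9, 45117782 to 45130070), had 111, 59.2 and 90.3 CPM in 15-HETrE and 85.5, 43.8 and 16.4 CPM in vehicle libraries. Vehicle combined was far below the rest. The fitted log2 difference was 1.06 (SE 0.52, adjusted p 0.565, limma), and it was 0.45 without vehicle combined. Scn4b, tied to resurgent sodium current, averaged 46.2 ± 38.5 CPM in 15-HETrE and 18.9 ± 2.7 CPM in vehicle libraries (SD, n = 3 each). A single library, 15-HETrE unnumbered at 88.5 CPM, lay far above the others, which had 13.1 to 36.9 CPM. Scn3b had a log2 fold change of 0.13 with overlapping libraries.

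**Figure D2:**
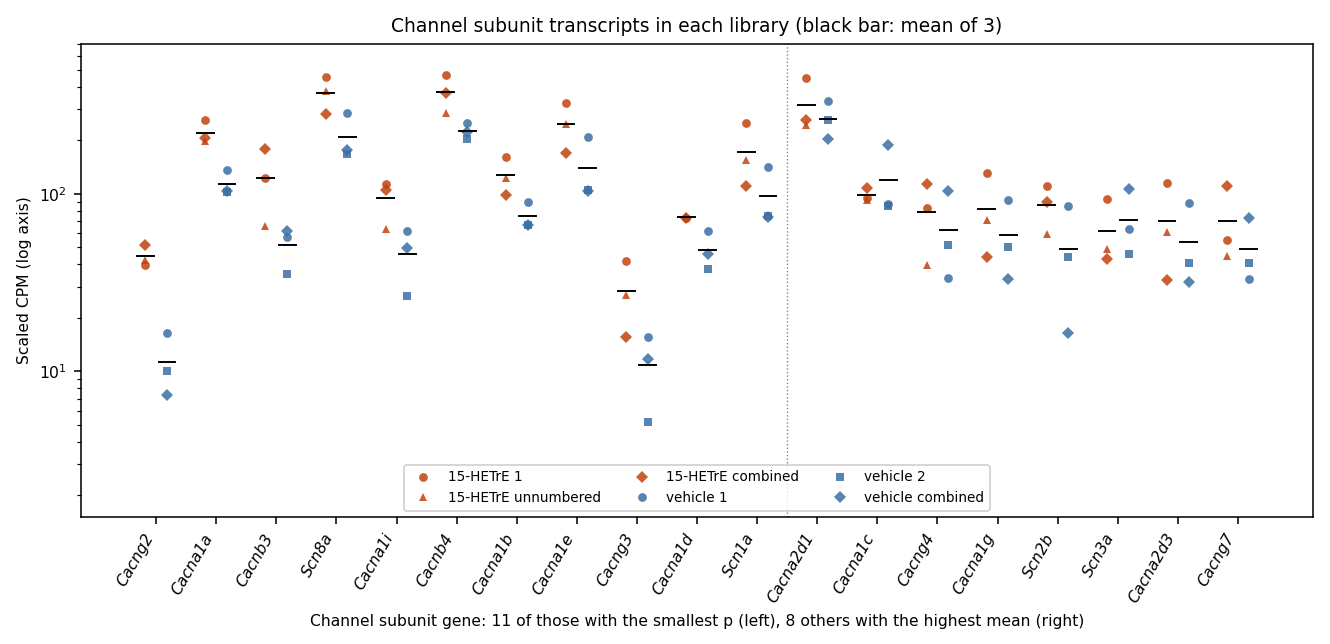
Scaled CPM on a log axis for 11 of the members with the smallest p (left of the dotted line) and 8 others with the highest mean (right), with 1 point per library, 15-HETrE left of vehicle, and black bars for the means of 3 libraries. Cacng2 had 39.8 to 51.5 CPM in 15-HETrE and 7.37 to 16.4 CPM in vehicle libraries, while Cacna1c and Scn3a were highest in vehicle combined.

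Calcium channel genes of the presynaptic terminal averaged higher in 15-HETrE. Cacna1a, the pore of the P/Q-type channel that triggers fast transmitter release (chromosome 8, 84388440 to 84640246), had 259, 198 and 206 CPM in the 15-HETrE libraries and 136, 103 and 104 CPM in the vehicle libraries. Every 15-HETrE library lay above every vehicle library. The log2 fold change was 0.95 (SE 0.24, adjusted p 0.394, limma), or 0.20 relative to the pan-neuronal markers, and the gene was 1 of 2 members past DESeq2's threshold (adjusted p 0.0416), where 1.14% of all genes passed. An antisense gene, Gm16183, shares 3.81% of its exonic bases, and the sources used here do not say whether reads were counted by strand.

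Cacna1b, the pore of the N-type channel of presynaptic terminals (chromosome 2, 24603887 to 24763152), had 161, 122 and 98.9 CPM in 15-HETrE and 90.4, 66.6 and 67.1 CPM in vehicle libraries. The groups did not overlap. On the log2 scale the difference was 0.75 (SE 0.27, adjusted p 0.465, limma), and 0.0047 relative to the pan-neuronal markers. Cacna1e, the pore of the R-type channel (chromosome 1, 154390731 to 154884501), had 324, 246 and 169 CPM in 15-HETrE and 209, 104 and 103 CPM in vehicle libraries. Vehicle 1 lay above 15-HETrE combined, and the log2 fold change was 0.85 (SE 0.34, adjusted p 0.490, limma).

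The 3 genes kept similar proportions. Per length, Cacna1a took 46.6% ± 4.6 of their summed level in 15-HETrE and 43.8% ± 2.8 in vehicle libraries, Cacna1b took 30.4% ± 1.5 and 32.9% ± 1.6, and Cacna1e 23.0% ± 3.1 and 23.3% ± 4.4 (SD, n = 3 each). All 3 were above 0 after centring on the pan-neuronal markers, by 0.0047 to 0.20. These shifts were smaller than the standard errors of the same genes in the fit without centring. In the centred fit the adjusted p was 0.749 for Cacna1a, 0.995 for Cacna1b and 0.876 for Cacna1e (limma).

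Of the L-type pore genes, which link depolarisation to gene expression and to pacemaking, Cacna1d and Cacna1c differed in pattern. Cacna1d (chromosome 14, 30039939 to 30491455) had 73.1, 75.0 and 73.4 CPM in 15-HETrE and 61.8, 37.9 and 45.5 CPM in vehicle libraries. The 15-HETrE libraries were nearly equal and lay above all vehicle libraries. Its log2 fold change was 0.63 (SE 0.28, adjusted p 0.524, limma), or -0.12 relative to the pan-neuronal markers. The gene shares 4.67% of its exonic bases with Chdh on the other strand.

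Cacna1c (chromosome 6, 118587240 to 119196418) had 94.8, 91.9 and 108 CPM in 15-HETrE and 87.6, 84.9 and 188 CPM in vehicle libraries. Only vehicle combined stood apart. The fitted log2 difference was -0.19 (SE 0.33, adjusted p 0.870, limma), and 0.18 without vehicle combined. Cacna1s, the skeletal muscle pore, averaged 2.03 CPM and had 36, 27 and 55 reads in 15-HETrE and 22, 11 and 0 reads in vehicle libraries. The groups did not overlap, but the lowest 15-HETrE library had 1.61 CPM and the highest vehicle library 1.03 CPM. An adjusted p of 0.596 (limma) went with the difference in Cacna1s. An antisense gene, Gm37759, shares 20.0% of its exonic bases. Cacna1f, of the retina, was under 1 CPM, with 37, 0 and 0 reads in 15-HETrE and 13, 15 and 0 reads in vehicle libraries.

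The T-type genes, whose low-voltage channels support burst firing, held 1 member with separate groups. Cacna1i (chromosome 15, 80287238 to 80398279) had 114, 63.0 and 106 CPM in 15-HETrE and 61.4, 26.7 and 49.3 CPM in vehicle libraries. Its lowest 15-HETrE library lay just above its highest vehicle library. The log2 fold change was 1.06 (SE 0.37, adjusted p 0.460, limma), with 1.47 within the first prefix and 1.09 in the combined pair. Cacna1g (chromosome 11, 94408391 to 94474198) had 131, 71.0 and 43.9 CPM in 15-HETrE and 92.0, 49.9 and 33.1 CPM in vehicle libraries, with overlap and a log2 fold change of 0.47 (limma, SE 0.46, adjusted p 0.764). Cacna1h averaged 61.2 ± 18.1 CPM in 15-HETrE and 52.6 ± 20.7 CPM in vehicle libraries (SD, n = 3 each), a log2 fold change of 0.24.

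The alpha2delta genes, whose products bring channels to the membrane, had log2 fold changes of 0.075 to 0.33 and overlapped between groups. Cacna2d1, a target of gabapentin (chromosome 5, 15934691 to 16374511), had 452, 244 and 260 CPM in 15-HETrE and 334, 260 and 203 CPM in vehicle libraries. The groups overlapped, and the log2 fold change was 0.23 (SE 0.31, adjusted p 0.827, limma), -0.048 without 15-HETrE 1. Cacna2d3 (chromosome 14, 28904943 to 29721864) had 116, 61.2 and 32.6 CPM in 15-HETrE and 88.6, 40.8 and 31.7 CPM in vehicle libraries. Its log2 fold change was 0.33 (SE 0.50, adjusted p 0.852, limma), -0.12 without 15-HETrE 1.

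Cacna2d2 was highest in the combined library of each group, at 23.2, 6.62 and 36.8 CPM in 15-HETrE and 10.1, 8.68 and 54.5 CPM in vehicle libraries. Its mean was 1.95 higher in the combined libraries than in the others on the log2 scale, the largest such difference among the 33 tested members. Cacna2d4, best known from the retina, averaged 8.82 CPM, with a log2 fold change of 0.31. Per length, Cacna2d1 made up 68.4% ± 0.3 of the family's summed level in 15-HETrE and 67.9% ± 8.4 in vehicle libraries (SD, n = 3 each). None of the 4 was above 0 after centring on the pan-neuronal markers.

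Of the intracellular beta subunit genes, Cacnb3 and Cacnb4 had separate groups. Cacnb3 (chromosome 15, 98630840 to 98644529) had 124, 65.4 and 179 CPM in 15-HETrE and 57.0, 35.5 and 62.0 CPM in vehicle libraries. Its lowest 15-HETrE library was close to vehicle combined. On the log2 scale the difference was 1.16 (SE 0.39, adjusted p 0.454, limma), or 0.41 relative to the pan-neuronal markers, and it was 1.44 within the first prefix and 1.51 in the combined pair.

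Cacnb4 (chromosome 2, 52428320 to 52676831) had 466, 285 and 370 CPM in 15-HETrE and 251, 203 and 223 CPM in vehicle libraries, with no overlap. Its log2 fold change was 0.70 (SE 0.25, adjusted p 0.462, limma), or -0.043 relative to the pan-neuronal markers. A noncoding gene on the other strand, A430018G15Rik, shares 16.0% of its exonic bases. Cacnb4 was the main beta gene per length, at 50.1% ± 4.8 of the family's level in 15-HETrE and 53.7% ± 5.8 in vehicle libraries (SD, n = 3 each), and Cacnb3 came next. Cacnb3 took 35.6% ± 11.6 in 15-HETrE and 26.8% ± 3.3 in vehicle libraries, a wider spread that came from its 48.5% in 15-HETrE combined. Cacnb1 and Cacnb2 overlapped between groups, with log2 fold changes of 0.12 and 0.46.

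**Figure D3:**
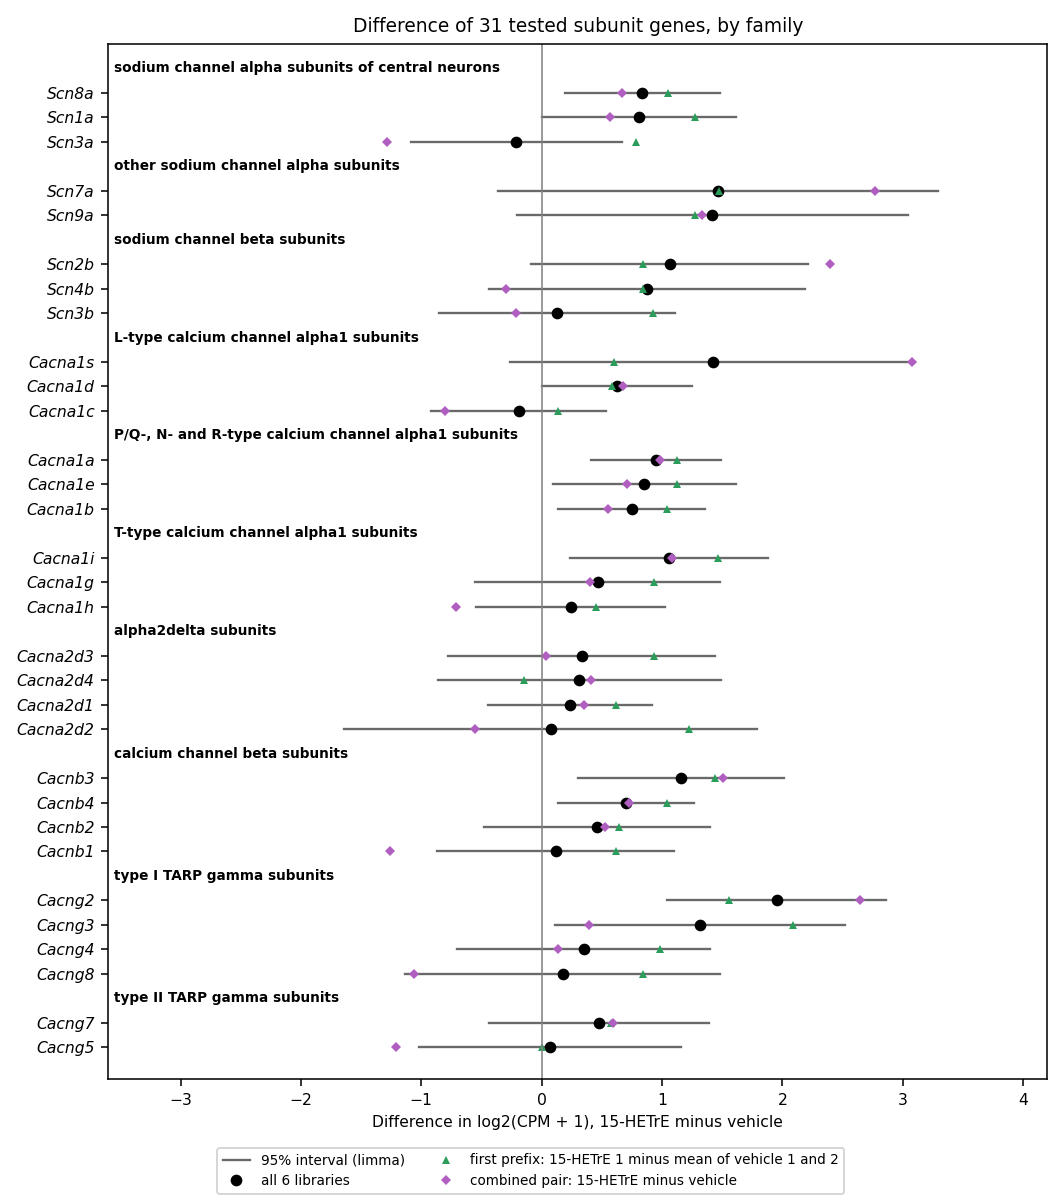
Difference in log2(CPM + 1), 15-HETrE minus vehicle (horizontal axis), for 31 of the tested members by family: black points for all 6 libraries, grey lines for their 95% intervals from limma, triangles for the first prefix and diamonds for the combined pair. The black point of Cacng2 lies farthest right, at 1.95, and the diamonds are below 0 for 9 members, among them Scn3a, Cacnb1 and Cacng5.

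The type I TARPs, which carry AMPA receptors to the synapse and slow their closing, held the member with the largest difference. Cacng2 encodes stargazin (chromosome 15, 77991748 to 78120028). It had 39.8, 42.6 and 51.5 CPM in the 15-HETrE libraries, against 16.4, 10.1 and 7.37 CPM in the vehicle libraries. The lowest 15-HETrE library was above the highest vehicle library by a wide margin, and the means were 44.6 ± 6.1 CPM in 15-HETrE and 11.3 ± 4.6 CPM in vehicle libraries (SD, n = 3 each).

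The log2 fold change of Cacng2 was 1.95 (SE 0.41, 95% interval 1.04 to 2.86, adjusted p 0.334, limma), a 3.87-fold difference on the log2(CPM + 1) scale. It rested on 874, 713 and 381 reads in 15-HETrE and 350, 224 and 41 reads in vehicle libraries. It was 1.56 within the first prefix, 2.65 within the combined pair and 1.21 relative to the pan-neuronal markers, the largest of the tested members on that last scale. DESeq2 called it (adjusted p 0.00293), and its log2 fold change stayed between 1.71 and 2.24 when each library was left out in turn. With edgeR 0 members were called (smallest adjusted p 0.468), and limma's centred fit gave Cacng2 an adjusted p of 0.179. An antisense gene, A730060N03Rik, shares 5.86% of its exonic bases.

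Cacng3, a TARP of the cortex (chromosome 7, 122670492 to 122769393), had 42.1, 26.8 and 15.7 CPM in 15-HETrE and 15.7, 5.17 and 11.7 CPM in vehicle libraries. The groups did not overlap, but 15-HETrE combined and vehicle 1 were almost equal. The fitted log2 difference was 1.31 (SE 0.54, adjusted p 0.504, limma), with 2.09 within the first prefix and 0.39 in the combined pair. Cacng4, a TARP found in immature neurons and glia (chromosome 11, 107732357 to 107794557), had 83.6, 39.7 and 113 CPM in 15-HETrE and 33.6, 51.7 and 103 CPM in vehicle libraries. Both combined libraries were the highest of their group, and the log2 fold change was 0.35 (SE 0.47, adjusted p 0.832, limma), -0.017 without vehicle 1. Cacng8, a TARP abundant in the hippocampus, averaged 9.32 ± 2.72 CPM in 15-HETrE and 8.73 ± 4.93 CPM in vehicle libraries (SD, n = 3 each).

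The proportions among the type I TARPs are given as a description. Cacng2 took 14.3%, 23.5% and 18.9% of the family's summed level per length in the 15-HETrE libraries, against 13.9%, 9.2% and 3.3% in the vehicle libraries. The groups did not overlap, although 15-HETrE 1 and vehicle 1 were close. Cacng4 took the most in every library, 33.7% to 64.3% in 15-HETrE and 43.9% to 72.4% in vehicle libraries. Precursors of oligodendrocytes are a known source of Cacng4. Their 7 markers, none at 0 in all libraries, summed to 2994 to 4310 CPM in 15-HETrE and to 3052 to 5121 CPM in vehicle libraries, and their part in Cacng4 was not tested.

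**Figure D4:**
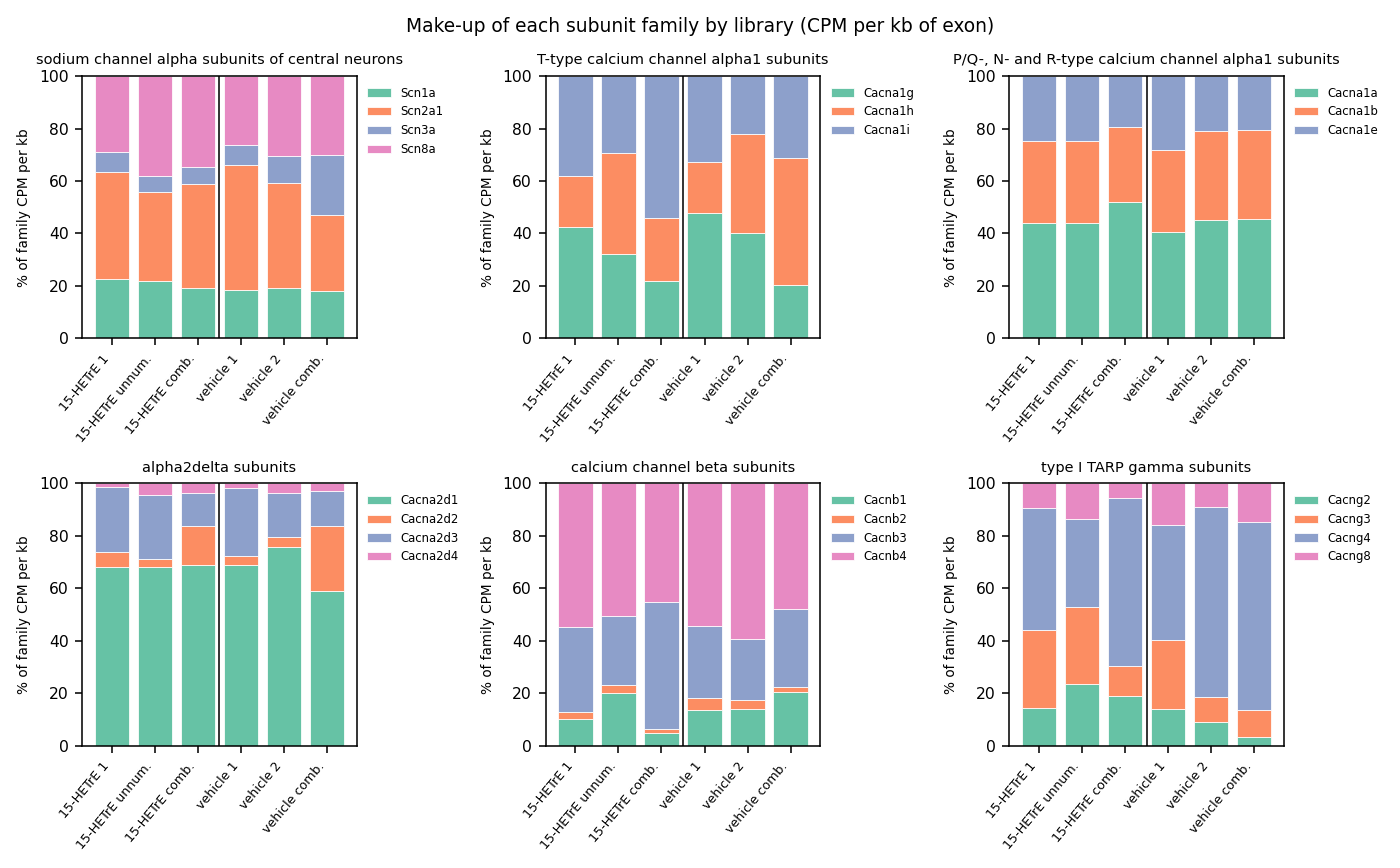
Share of each gene in the summed CPM per kb of exon of its family (vertical axis, percent) in each library (horizontal axis), with 15-HETrE left of the black line and vehicle right of it, for 6 families. Cacna2d1 makes up 59.0% to 75.7% of its family in all libraries, while the share of Cacng2 among type I TARPs is 14.3% to 23.5% in 15-HETrE and 3.3% to 13.9% in vehicle libraries.

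Of the type II TARPs, Cacng7 (chromosome 7, 3332955 to 3368221) had 55.1, 44.3 and 110 CPM in 15-HETrE and 33.2, 40.5 and 72.8 CPM in vehicle libraries. The combined library was the highest of each group. The fit gave 0.48 on the log2 scale (SE 0.41, adjusted p 0.731, limma). Cacng5 had 85.3 CPM in 15-HETrE unnumbered and 20.9 to 49.8 CPM in the other libraries, with a log2 fold change of 0.073. The muscle-type members Cacng1 and Cacng6 averaged under 1 CPM and were not tested. Cacng1 had 9, 1 and 28 reads in the 15-HETrE libraries and 0 reads in each vehicle library, and Cacng6 had 14 reads in 15-HETrE 1 and 2 in vehicle 1.

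To show what the promoters of members with separate groups look like, the windows of 250 bases before to 50 after the start are printed for 3 such members with a single RefSeq start, 1 TARP and 2 calcium channel pores (RefSeq, GRCm38.p6; lower case, with GC boxes in capitals). They lie at chr15:78119231-78119530 on the minus strand (Cacng2), chr15:80286988-80287287 on the plus strand (Cacna1i) and chr2:24763103-24763402 on the minus strand (Cacna1b).
Cacng2: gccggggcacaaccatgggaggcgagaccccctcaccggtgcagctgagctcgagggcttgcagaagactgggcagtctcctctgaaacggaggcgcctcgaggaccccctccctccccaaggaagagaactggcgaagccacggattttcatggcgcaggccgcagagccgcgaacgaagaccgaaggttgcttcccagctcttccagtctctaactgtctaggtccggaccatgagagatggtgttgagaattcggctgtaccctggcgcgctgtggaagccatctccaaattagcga
Cacna1i: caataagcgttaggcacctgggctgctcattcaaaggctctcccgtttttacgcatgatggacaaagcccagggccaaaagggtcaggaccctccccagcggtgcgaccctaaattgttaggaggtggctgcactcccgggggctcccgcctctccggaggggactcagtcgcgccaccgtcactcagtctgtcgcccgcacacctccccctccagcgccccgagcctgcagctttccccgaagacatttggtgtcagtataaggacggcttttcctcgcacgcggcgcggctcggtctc
Cacna1b: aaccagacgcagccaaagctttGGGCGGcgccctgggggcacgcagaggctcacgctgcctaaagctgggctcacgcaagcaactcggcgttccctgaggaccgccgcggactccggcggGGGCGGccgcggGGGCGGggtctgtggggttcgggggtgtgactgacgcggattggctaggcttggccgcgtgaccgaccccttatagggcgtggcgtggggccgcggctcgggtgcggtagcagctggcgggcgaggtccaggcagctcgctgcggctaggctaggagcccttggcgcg

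The 3 windows held 61.0%, 62.7% and 72.3% G and C. The median was 59.7% over the windows of members and 52.7% over all windows. The GC box, GGGCGG on either strand, which the factor Sp1 binds, occurred 3 times in Cacna1b and 0 times in the other 2. Of the 39 windows of 29 members in the table, 41.0% held a GC box, against 35.7% of all 32851 windows. The cyclic AMP response element, TGACGTCA, was in 0 of the 39, against 1.79% of all windows, and TTCAGCACC, the left part of the site of the repressor REST, was also in 0, against 0.371%. Both strands were searched for each, and the letters of neither hold the GC box.

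Most genes whose products work with these channels also stood higher in 15-HETrE. Of 10 partners at the axon initial segment, 0 passed limma's test, 9 had a log2 fold change above 0, against 51% of all genes, and 4 were higher with no overlap, against 6.84%. Their median was 0.70. Ank3, whose product ankyrin-G anchors sodium channels, had 893, 1391 and 1030 CPM in 15-HETrE and 609, 634 and 771 CPM in vehicle libraries, with no overlap and a log2 fold change of 0.70. Sptbn4, a spectrin of the initial segment, averaged 114 ± 14.3 CPM in 15-HETrE and 64.8 ± 8.2 CPM in vehicle libraries, 0.80 apart on the log2 scale (SE 0.25, n = 3 each, adjusted p 0.422, limma). Fgf14, which binds the tail of sodium channels, averaged 52.1 ± 9.6 and 26.8 ± 7.6 CPM in 15-HETrE and vehicle libraries.

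Of 11 tested partners and regulators of calcium channels, 0 passed, 10 were above 0, against the same 51%, and the median was 0.62. The gene below 0 was Gem, a small GTPase that inhibits calcium channels and is induced by activity. It had 3.55, 8.83 and 2.03 CPM in 15-HETrE and 16.2, 26.6 and 21.4 CPM in vehicle libraries, with no overlap, where 8.32% of all genes lay wholly lower. In the fit its log2 fold change was -2.10 (SE 0.59, adjusted p 0.394, limma). Stac2, an adaptor that slows inactivation of L-type channels, had 50.7, 49.9 and 121 CPM in 15-HETrE and 23.0, 6.48 and 36.7 CPM in vehicle libraries, also with no overlap, and a log2 fold change of 1.86. Rims2, a scaffold that holds calcium channels at the active zone, overlapped between groups and averaged 289 ± 109 CPM in 15-HETrE and 141 ± 76.7 CPM in vehicle libraries (SD, n = 3 each).

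The sodium leak channel NALCN sets resting excitability together with UNC79, UNC80 and FAM155A. Of 4 genes tested, 0 passed and all had a log2 fold change above 0, against 51% of all genes, with a median of 0.70. The groups did not overlap for 2 of them, Unc80 and Fam155a, against 6.84% of all genes higher without overlap. Unc80 had 443, 368 and 770 CPM in 15-HETrE and 280, 161 and 364 CPM in vehicle libraries. The lowest 15-HETrE library, unnumbered, was only just above vehicle combined. Fam155a averaged 76.8 ± 20.3 CPM in 15-HETrE and 43.6 ± 8.0 CPM in vehicle libraries, and Unc79 averaged 145 ± 19.1 and 101 ± 48.9 CPM (SD, n = 3 each). Nalcn itself overlapped between groups. On the log2 scale centred on the pan-neuronal markers, the medians of these 3 partner lists were -0.046, -0.13 and -0.047.

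Across all 33 tested members, 15-HETrE 1 was the highest library for 15 and the lowest for none, vehicle 2 was the lowest for 12 and the highest for none, and vehicle combined was the lowest for 11 and the highest for 4. Those 4 were Scn3a, Cacna1c, Cacng8 and Cacna2d2. The difference was above 0 for 32 members within the first prefix and for 23 within the combined pair, where 9 were below 0 and 1 was equal in both. For 22 members it was above 0 within the prefix and within the pair, against 30.9% of all genes. Vehicle combined held 5405245 reads, the fewest of all. Without both combined libraries all 33 members were above 0, where the median log2 fold change of all genes was -0.0097. In that smaller comparison 20 members showed no overlap between groups, against 20.9% of all genes higher without overlap. Without vehicle combined alone, 32 members were above 0, where the median of all genes was -0.044. There 13 did not overlap, against 14.1% of all genes.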

How the data were processed

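RNA-seq of 6 libraries, 3 of 15-HETrE and 3 of vehicle, was analysed. Trimmomatic, HISAT2, featureCounts and edgeR with the mm10 genome are named per the submitters' processing notes; versions, settings, gene annotation, strand handling and the treatment of reads shared by similar genes are not given there. The values deposited by the authors are a signal, CPM scaled by a factor for each library; factors recomputed by TMM gave the same results. Every value was a whole multiple of the smallest in its column (100% within a tolerance of 1e-04 reads), so reads were recovered for the count tests. Libraries were grouped by column name, with 0 columns left out.

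The 14523 genes averaging 1 CPM or more were fitted on the log2(CPM + 1) scale, which understates fold changes of low genes, with limma 3.58.1 in R 4.3.3 (group alone, trended variance). Tests are two-sided, and Benjamini-Hochberg adjusted p-values cover all 14523 genes, with a threshold of 0.05. The pre-set test assumed CPM and was applied to the scaled CPM. Floors are 3 counts per library. Exon lengths and positions are from GENCODE M21 on GRCm38, and promoters from RefSeq.

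The members and all gene lists were chosen with earlier results of these data known. Named in full were the 12 tested members with the smallest p and the 8 others with the highest mean; the rest are given by family, with reads for those under 1 CPM, and up to 3 genes per partner list by smallest p, to which Nalcn was added after its values were seen. A few genes under this rule are not reported individually; they stay in the counts and medians. Alternatives were other pseudocounts, filters, scalings and weights, edgeR 4.0.16 and DESeq2 1.42.0, leaving out libraries, and the column prefix as a batch term. The scripts were tested on simulated counts.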

Additional observations from a re-analysis of the deposited data

How the results depend on the processing

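Members called stayed at 0 under other pseudocounts, filters and scalings, with edgeR and with each library left out. Library weights called 12 members and 2425 genes, with the lowest weight, 0.206, on vehicle combined and the highest, 3.75, on vehicle 2; DESeq2 called 2 members and 165 genes. All genes called were 555, all lower, after centring on pan-neuronal markers, 75 without both combined libraries and 8 with the prefix as a batch term; with 1 library left out the count was 0 to 45, the 45 without vehicle combined. The causes were not tested. The median log2 fold change of the members was 0.47 to 0.85 with 1 library left out. It was -0.12 after centring on pan-neuronal markers, where Cacnb4 (-0.043), Cacna1d (-0.12), Cacna2d1 (-0.51), Cacng4 (-0.39), Cacna1g (-0.28), Cacna2d3 (-0.41) and Cacng7 (-0.27) also turned negative. Library weights turned Cacna1c (0.12) and Scn3a (0.60) positive, as did leaving out both combined libraries (0.11 and 0.33) or vehicle combined (0.18 and 0.11). With 1 library left out, Scn3a ranged from -0.55 to 0.11 (0.0052 without 15-HETrE combined), Cacna2d1 from -0.048 (without 15-HETrE 1) to 0.41, Cacna2d3 from -0.12 (without 15-HETrE 1) to 0.78 and Cacng4 from -0.017 (without vehicle 1) to 0.78. The other 11 of the 20 members named in full kept their direction under all 18 alternatives. Without 15-HETrE 1 or vehicle 2, 3 members stood higher at an unadjusted p under 0.05, against 11 with all libraries (limma). No paired analysis was possible because the columns share only number 1 between groups. The prefix was fitted as a batch term in place of a replicate number, with a median of 0.62 for the members. The combined pair carries no prefix in its column names and was set as a level of its own. 15-HETrE unnumbered is alone under its prefix, so it added nothing to the group difference in that fit. Members under about 10 CPM rest on few reads in the combined libraries, which limits what these can show.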
